A study of Mus musculus with 42 samples.

Results

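The regions described here are 9406 stretches of open chromatin that were listed for hippocampal neurons of both trisomic genotypes and not for those of euploid mice. They were chosen by their presence and absence in 3 peak lists from ATAC-seq, one list per genotype. A peak of the Ts65Dn list was kept when no euploid peak shared 1 bp with it and at least 1 peak of the Ts65Dn;Brwd1+/- list did. The 9406 gained peaks were 32.2% of the 29195 peaks in the Ts65Dn list and 64.3% of the 14621 Ts65Dn peaks without a euploid overlap. Another 14244 Ts65Dn peaks were in all 3 lists and are called shared peaks below, 5215 were in the Ts65Dn list only, and 330 had a euploid overlap but none in Ts65Dn;Brwd1+/-. Since the rule used the lists themselves, list membership and peak strength are given as a description, without a test.

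The series compared euploid mice with Ts65Dn mice, which carry an additional copy of distal chromosome 16 and proximal chromosome 17, and with Ts65Dn;Brwd1+/- mice, which carry the same segment and 1 disrupted copy of Brwd1, a bromodomain and WD repeat gene inside it. All animals were on a mixed genetic background, and proximal chromosome 17 holds triplicated genes that have no counterpart on human chromosome 21. ATAC-seq was run on NeuN-positive nuclei sorted from the hippocampus of 6-week-old males, with 3 libraries per genotype, and each genotype was deposited as 1 peak list, so no spread between animals was available for any peak. SMARCA2/4 ChIP-seq was run on hippocampus at 6 to 8 weeks of age, with tissue of 2 animals pooled per sample and 4 immunoprecipitates per genotype, again giving 1 list per genotype. RNA-seq was run on neuronal cultures from the forebrain at embryonic day 16, 3 libraries per genotype. Per the study's methods, the cells were kept in culture for days before collection, with AraC to hold back the growth of glia. The series held 42 samples.

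ATAC-seq uses a transposase that inserts sequencing adapters where DNA is not wrapped tightly in nucleosomes, so that peaks mark promoters, enhancers and other accessible sites. Promoters of broadly expressed genes lie in CpG-rich DNA that is open in most cell types, whereas enhancers lie mostly within introns and between genes and differ between cell types. SMARCA2 (BRM) and SMARCA4 (BRG1) are the alternative ATPases of the BAF complexes, which use ATP to slide or evict nucleosomes.

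The following sequences show the kinds of site among the gained peaks that the results turn on, namely a strong peak far from any gene, a peak in an intron, a pair of promoters, and sites with a euploid SMARCA2/4 peak. Each is the part, outside annotated exons, of the central 200 bp of a gained peak, read from the + strand of GRCm38/mm10. Capitals mark matches, on either strand, to the short motifs searched and listed further below.
Intergenic peak nearest Kirrel3, chr9:34231667-34231866, AP-1 site in capitals: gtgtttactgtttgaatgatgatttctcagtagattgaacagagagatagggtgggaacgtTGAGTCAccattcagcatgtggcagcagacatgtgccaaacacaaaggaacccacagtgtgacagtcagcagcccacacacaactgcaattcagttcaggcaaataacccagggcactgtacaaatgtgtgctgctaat
Fhad1 intron, chr4:141964675-141964818, CTCF core and EGR matches in capitals: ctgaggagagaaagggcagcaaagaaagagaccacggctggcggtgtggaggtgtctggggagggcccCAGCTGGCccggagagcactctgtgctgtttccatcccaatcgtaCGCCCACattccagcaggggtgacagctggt
Nsrp1 promoter, chr11:77078436-77078558, ETS site in capitals: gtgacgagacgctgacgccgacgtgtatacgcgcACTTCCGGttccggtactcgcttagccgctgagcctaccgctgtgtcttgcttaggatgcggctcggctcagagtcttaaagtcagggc
Haspin promoter, chr11:73138295-73138454, 2 CTCF core matches and an E-box that overlaps the second in capitals: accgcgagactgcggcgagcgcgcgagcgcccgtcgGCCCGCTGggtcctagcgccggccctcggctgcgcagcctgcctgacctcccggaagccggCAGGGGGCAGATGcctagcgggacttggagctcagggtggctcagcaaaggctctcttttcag
Adcy2 intron with a euploid SMARCA2/4 peak, chr13:68707437-68707636, CTCF core match in capitals: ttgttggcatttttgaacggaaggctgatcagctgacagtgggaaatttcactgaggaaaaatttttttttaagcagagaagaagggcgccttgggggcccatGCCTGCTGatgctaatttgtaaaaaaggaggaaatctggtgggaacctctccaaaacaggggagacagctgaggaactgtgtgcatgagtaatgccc
Intergenic peak with a euploid SMARCA2/4 peak, chr1:52331543-52331742, an E-box and an overlapping AP-1 site in capitals: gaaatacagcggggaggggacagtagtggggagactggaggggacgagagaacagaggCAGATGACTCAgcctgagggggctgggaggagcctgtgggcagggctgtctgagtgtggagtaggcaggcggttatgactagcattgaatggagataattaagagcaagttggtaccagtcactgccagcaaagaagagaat

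The gained peaks were of low to middle strength in both trisomic lists. Strength is the fold enrichment that the peak caller MACS gave each peak over its local background. In the Ts65Dn list the gained peaks had a median fold of 3.78 (interquartile range 3.38 to 4.30, highest 7.85), and in the Ts65Dn;Brwd1+/- list their overlapping partners had a median of 3.34 (2.95 to 3.77, highest 9.05). The shared peaks stood higher, with medians of 5.25 in Ts65Dn, 4.42 in Ts65Dn;Brwd1+/- and 4.11 in euploid, and the peaks listed in Ts65Dn only stood lower, at 3.44. In the Ts65Dn list, 93.0% of the gained peaks were under a fold of 5, and 79 of them (0.840%) reached 5 in both trisomic lists. They were also narrow, with a median width of 283 bp in the Ts65Dn list against 521 bp for the shared peaks. The share of Ts65Dn peaks that were gained was 41.8% (765 of 1832) at folds under 3 and 46.7% (5067 of 10845) at folds of 3 to 4, and it fell through 37.8% at 4 to 5 and 14.3% at 5 to 6, to 2.26% (57 of 2524) at 6 to 7 and 0.144% (3 of 2080) at 7 or more.

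**Figure D1:**
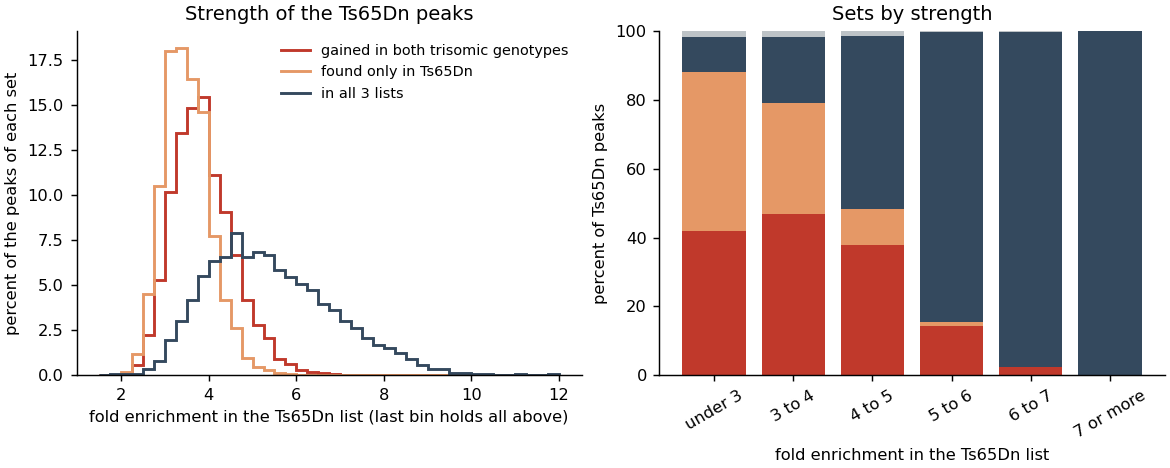
Left, the share of each set of Ts65Dn peaks (percent) by MACS fold enrichment. Right, the makeup of each class of fold, with gained peaks in red, Ts65Dn-only peaks in orange, shared peaks in dark blue and the 330 peaks with a euploid overlap only in grey. Gained peaks are 46.7% of the peaks at folds of 3 to 4 and 0.144% at 7 or more.

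The number of gained peaks moved with the length of the lists. The euploid list held 15521 peaks, against 29195 for Ts65Dn and 30244 for Ts65Dn;Brwd1+/-, and 2786 of the gained peaks (29.6%) were among the 15521 Ts65Dn peaks of lowest q-value, compared with 85.9% of the shared peaks. When both trisomic lists were cut to 15521 peaks, 1557 peaks met the rule. At the shared peaks, the euploid fold was lower than the Ts65Dn fold in 92.6%, with a median ratio of 0.813, and lower than the Ts65Dn;Brwd1+/- fold in 62.0%, with a median ratio of 0.958. Read depths of the ATAC-seq libraries are not given in the files, and the part of depth in the length of the lists was not tested.

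By the rule, each gained peak overlapped a partner, taken as the peak with the most bases in common, so their closeness is only described. The centres were a median of 32 bp apart, as for the shared peaks at 31 bp, and 98.2% of the pairs had at least 50% of the shorter peak in common. The fold was higher in the Ts65Dn list for 79.7% of the gained peaks and for 87.4% of the shared peaks. Across the gained peaks, Spearman's rank correlation between both folds was 0.54, and across the shared peaks 0.84. This is a correlation across regions of 2 lists, narrower in range for the gained peaks, and regions are not replicates.

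**Figure D2:**
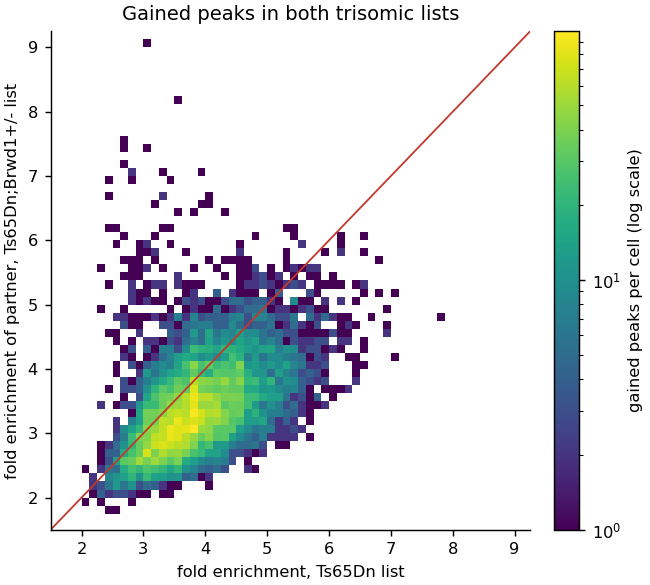
Gained peaks by fold enrichment in the Ts65Dn list (horizontal) and of the partner in the Ts65Dn;Brwd1+/- list (vertical), coloured by the number of peaks per cell on a log scale. The line marks equal folds, and 79.7% of the gained peaks are below it. The scatter high above the line holds mostly peaks whose partner also overlaps a euploid peak.

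A small group of gained peaks had a far stronger partner. In 100 of them the Ts65Dn;Brwd1+/- fold was at least 1.5 times the Ts65Dn fold, and in 99 of these the partner was a peak that also overlapped a euploid peak. In all, 228 gained peaks (2.42%) had such a partner, with a median width of 810 bp. They lay a median of 128 bp from the nearest euploid peak, and their median fold was 3.12 in Ts65Dn against 4.55 for the partner.

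The strongest gained peaks by the lower of both folds were at promoters, in introns and between genes. The first was a 266 bp peak on chromosome 17 (chr17:6256736-6257001) with folds of 6.13 in Ts65Dn and 6.12 in Ts65Dn;Brwd1+/-. It lay 150 kb from the nearest euploid peak, inside the triplicated segment, and over the annotated start of Tmem181a, a transmembrane protein gene with a close copy nearby. The second was the intergenic peak on chromosome 9 whose AP-1 site is shown above (chr9:34231628-34231906, folds 6.56 and 6.04), 254 kb from the nearest coding start, that of Kirrel3. Only these 2 gained peaks had a fold of 6 or more in both lists. Next was a peak in an intron of Jph1, which encodes a junctophilin that ties the plasma membrane to the endoplasmic reticulum (chr1:17060582-17060885, folds 6.14 and 5.93). The peak in an intron of Fhad1 (chr4:141964522-141964916, folds 6.13 and 5.87) followed. The others of the 10 highest outside promoters were an intergenic peak on chromosome 2 (chr2:9620592-9621270, folds 6.56 and 5.78), 427 kb from the nearest euploid peak, one in an intron of Nrros, which encodes a protein that anchors latent TGF-beta on microglia (chr16:32154437-32154937, folds 5.91 and 5.78), and an intergenic peak on chromosome 16 (chr16:13754415-13754866, folds 5.70 and 5.61).

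Of the 10 highest gained peaks at proximal promoters, those of Ei24 and Pdcd2 are described with SMARCA2/4 further below. The peak at the start of Zswim9 (chr7:13278370-13278906) had folds of 6.13 and 5.78. At Uxt, which encodes a prefoldin-like protein, the peak had folds of 6.77 and 5.70 (chrX:20961569-20962245). Yae1d1, whose product takes part in the assembly of a ribosome recycling factor, had 5.63 and 5.62 (chr13:17992953-17993545). At Nudt7, which encodes a peroxisomal coenzyme A diphosphatase, the folds were 5.48 and 5.53. The peak of Nsrp1, a nuclear speckle splicing regulator (chr11:77078308-77078611, folds 6.02 and 5.38), was centred 24 bp upstream of the start and held the ETS site shown above. That of Haspin, a histone H3 kinase of mitosis that lies within an intron of Itgae, had folds of 5.48 and 5.38 (chr11:73138212-73138503). Rbm3, a cold-inducible RNA-binding protein gene, had 6.45 and 5.36, and Porcn, which encodes the acyltransferase that lipidates WNT ligands, had 5.95 and 5.36. Both are on the X chromosome, where their peaks lay 12.91 and 12.95 kb from the nearest euploid peak.

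The gained peaks were mostly away from promoters. The annotation in the files placed 3514 (37.4%) in gene bodies and 2547 (27.1%) between genes. Within 250 bp of a start site, the proximal promoter class, were 1787 gained peaks (19.0%, 95% Wilson interval 18.2 to 19.8%), compared with 8222 (57.7%) of the shared peaks and 731 (14.02%) of the peaks listed in Ts65Dn only. A further 856 (9.10%) lay within 1 kb and 698 (7.42%) within 3 kb, so that 35.5% of the gained peaks and 68.8% of the shared peaks were in a promoter class. Of the 79 gained peaks with a fold of at least 5 in both trisomic lists, 32 were at proximal promoters. These intervals cover counting error only, since animals were not separate in the lists. By GENCODE features on the same build, the centres of 49.1% of the gained peaks were in introns, 33.9% between genes, 8.93% in untranslated regions and 4.16% in coding exons. The corresponding shares of the shared peaks were 29.3% in introns, 32.2% between genes and 26.4% in untranslated regions.

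The difference in position was also there at equal strength. Among peaks with a Ts65Dn fold of 4 to 5, 17.6% of 2916 gained peaks were at proximal promoters, against 42.3% of 3900 shared peaks and 12.3% of 807 peaks in Ts65Dn only. Along the fold in the weaker of both lists, the lowest quartile of gained peaks held 24.7% at proximal promoters and 17.1% between genes. The highest quartile held 18.5% and 33.4%. Intergenic gained peaks had median folds of 3.92 in Ts65Dn and 3.44 in Ts65Dn;Brwd1+/-, and those within 1 kb of a start 3.42 and 3.11.

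**Figure D3:**
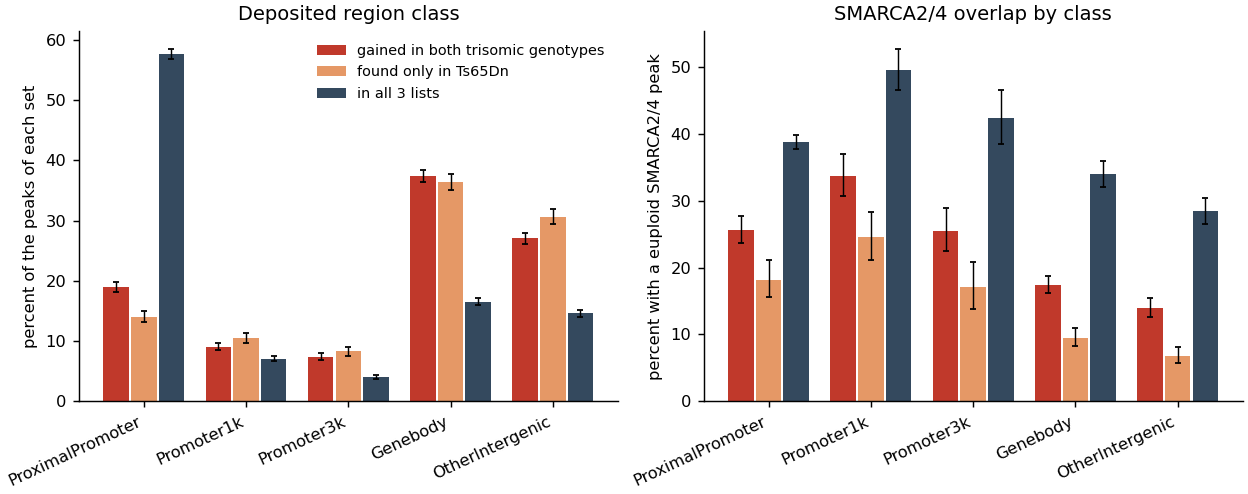
Left, the share of each set of peaks (percent) in the deposited region classes. Right, the share of each class that overlaps a euploid SMARCA2/4 peak (percent). Error bars are 95% Wilson intervals. Gained peaks are at proximal promoters in 19.0%, shared peaks in 57.7%, and in each class the SMARCA2/4 share of gained peaks lies between those of Ts65Dn-only and shared peaks.

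Most gained peaks lay more than 10 kb from any euploid peak, though no genomic background was computed for this distance. The median distance to the nearest one was 32.2 kb, 77.6% were more than 10 kb away and 19.8% more than 100 kb. For the peaks in Ts65Dn only, the median was 36.2 kb. Only 582 gained peaks (6.19%) lay within 500 bp of a euploid peak. Of these, 83.9% were in a promoter class, compared with 32.3% of the 8822 farther ones, and their median fold in Ts65Dn was 3.25 against 3.83. Gained peaks within 1 kb of a start, outside the proximal class, were nearest to euploid peaks, with a median of 9.34 kb, and intergenic ones farthest, with 45.5 kb.

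**Figure D4:**
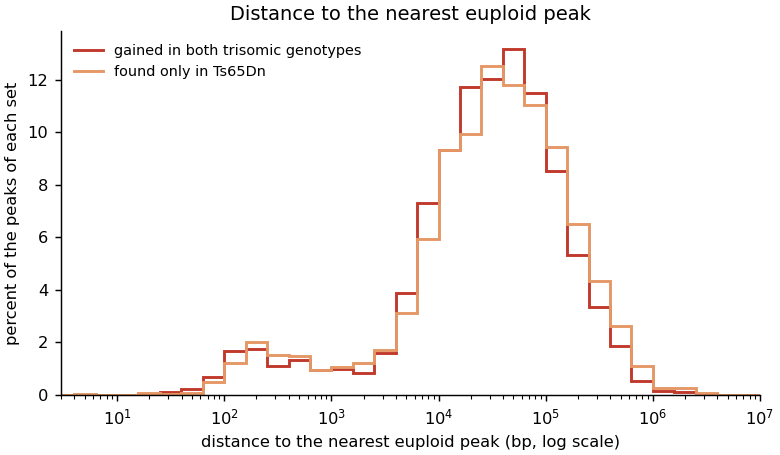
Share of each set of peaks (percent) by distance to the nearest euploid peak (bp, log axis), for gained peaks and peaks in Ts65Dn only. Both have a small group within 500 bp and a main one near 10 to 100 kb, with medians of 32.2 and 36.2 kb.

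At the edge of the rule, the gained peaks closest to a euploid peak were those of Ubr3, 11 bp away with folds of 3.42 and 6.24, Kcng3, 24 bp away with 4.56 and 3.08, Gm13620, 25 bp away with 4.50 and 3.02, Grm7, 25 bp away with 4.36 and 3.85, and Psmd6, 26 bp away with 3.04 and 4.46. Just outside it were the Ts65Dn peaks of Tmem202, which shared 1 bp with a euploid peak at folds of 2.75 and 3.99, Bhlhe22, which shared 2 bp at 2.84 and 2.74, and Btbd10, which shared 6 bp at 3.29 and 3.11. Those of Zbtb49 and Slc7a14, which shared 5 and 9 bp, had folds of 2.89 and 2.82 in Ts65Dn and no partner.

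Base composition separated the distal from the promoter members of the gained peaks. Over the central 200 bp of 9403 peaks, the median GC content was 53.0%, against 62.0% for the shared peaks and 41.5% for 2563 evenly spaced genomic windows of the same length. Gene body and intergenic gained peaks had a median GC content of 50.5% and proximal promoter ones of 65.5%, close to the 52.0% and 67.5% of the shared peaks. A CpG content over 0.6 of that given by base composition was found in 22.4% of the gained peaks, 59.1% of the shared peaks and 2.42% of the genomic windows. Repeats made up 7.81% of the gained bases and 34.4% of the genomic windows.

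Short motifs were counted on both strands of the same windows, with N for any base. The E-box CAGATG, which neuronal bHLH factors such as NEUROD bind, was in 30.8% of the gained peaks, 16.5% of the shared peaks and 14.9% of the genomic windows. TGANTCA, the AP-1 site of FOS and JUN factors, was in 11.9%, 6.21% and 5.74%. The share of the whole Ts65Dn list was 23.4% for the E-box and 8.54% for AP-1. Motifs of promoters were rarer in the gained peaks. GGGCGG, bound by SP and KLF factors, was in 19.3% of the gained and 43.0% of the shared peaks, against 1.52% of the genomic windows. CGCANGCG (NRF1) was in 3.12%, 9.97% and 0.195%, and CCGGAAGT (ETS) in 1.11%, 3.72% and 0.0390%. CAGNNGGC, a loose core of the CTCF site, was in 29.7%, 26.5% and 7.37%. GTTGCCAT (RFX) was in 2.05%, 1.83% and 0.702%, and GTGGGCG (EGR) in 5.01%, 8.87% and 0.507%. TGACGTCA (CRE) was in 0.649%, 1.67% and 0.117%, CTATTTATA (MEF2) in 0.457%, 0.155% and 0.117%, AAGGTCA (a nuclear receptor site) in 0.840%, 0.809% and 3.24%, and AAGATGGCG (YY1) in 0.532%, 1.94% and 0.0780%.

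Most of these differences were smaller once promoters were set aside. Among gene body and intergenic peaks, the E-box was in 38.0% of the gained, 36.3% of the shared and 34.0% of the peaks in Ts65Dn only. AP-1 was in 14.9%, 13.8% and 10.5% of them, and in 16.2% of the peaks listed in Ts65Dn;Brwd1+/- only. Motifs can overlap, as the AP-1 and E-box matches of the chromosome 1 sequence above do, and a match is a description of the letters, not a binding site.

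SMARCA2/4 peaks of euploid hippocampus overlapped 1892 gained peaks (20.1%, 95% Wilson interval 19.3 to 20.9%), compared with 37.4% of the shared peaks and 12.1% of the peaks in Ts65Dn only. The trisomic ChIP lists overlapped few gained peaks, 111 (1.18%) for Ts65Dn and 161 (1.71%) for Ts65Dn;Brwd1+/-, but these lists were themselves short, with 1290 and 1873 peaks against 22667 for euploid. Of these peaks, 31.8%, 58.2% and 87.8% had a q-value under 0.05, the stated filter, and with such ChIP peaks only, 32 gained peaks (0.340%) overlapped the Ts65Dn list, 77 (0.819%) the Ts65Dn;Brwd1+/- list and 1711 (18.2%) the euploid list. As a share of each ChIP list, 9.69% of the euploid, 8.84% of the Ts65Dn and 8.97% of the Ts65Dn;Brwd1+/- peaks lay on a gained peak, and 9.83%, 7.80% and 7.25% of those with q under 0.05. By gained peak, 7440 (79.1%) had no SMARCA2/4 peak in any list, 1713 had one in the euploid list alone, 15 in all 3 lists, and 74 in a trisomic list but not in the euploid list. The median fold of the euploid ChIP peaks was 3.77 on gained peaks, 3.77 on euploid ATAC peaks and 3.73 on neither.

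Overlap with euploid SMARCA2/4 was highest near promoters and in wide peaks. It was 33.8% for gained peaks within 1 kb of a start outside the proximal class, 25.6% at proximal promoters, 17.4% in gene bodies and 13.98% between genes. The weakest quartile of the gained peaks had 30.2% and the strongest 15.1%. Width moved with it, from 15.6% at 200 to 299 bp to 49.1% at 600 bp or more, where the shared peaks had 48.9%, and a wide peak has more bases to overlap with. At a Ts65Dn fold of 4 to 5, the shares were 17.3% for gained, 35.5% for shared and 7.06% for Ts65Dn-only peaks. Gained peaks with an AP-1 site overlapped in 25.1% and those without in 19.4%, while those with the E-box overlapped in 16.7% and those without in 21.6%.

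The strongest gained peaks with euploid SMARCA2/4 were at Ei24, Adcy2, a chromosome 1 site between genes, Apba1 and Pdcd2. Ei24, which encodes a membrane protein of the endoplasmic reticulum induced by p53, had ATAC folds of 5.59 and 5.93 at its promoter and a ChIP fold of 3.77. The peak in an intron of Adcy2, an adenylyl cyclase gene, had ATAC folds of 5.59 and 5.62 and a ChIP fold of 3.27 (q = 0.054). That in an intron of Apba1, which encodes the presynaptic adaptor MINT1, had 5.77 and 5.44 and a ChIP fold of 3.08. Pdcd2, whose peak also lies within the annotated Tbp gene, had 5.38 and 6.17 with a ChIP fold of 3.46.

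By gene, 6855 gained peaks were assigned to 4905 genes, and 86.7% of these peaks were at protein-coding genes. Of 22028 protein-coding genes in the annotation, 4043 had at least 1 gained peak, a background of 18.4%. Most genes had a single one (3805), while 106 had 5 or more and 9 had 10 or more. At promoters, 3040 genes had a gained peak in a promoter class and 2094 of them (68.9%) had no euploid peak in one. In 2555 of the 4905 genes (52.1%) no euploid peak of any class was listed.

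The genes with the most gained peaks were long. Dab1, the adaptor that relays Reelin signals, had 17, followed by 15 in Dlg2, which encodes the postsynaptic scaffold PSD-93, and 13 in Asic2, a subunit of acid-sensing channels. Kalrn, an exchange factor for small GTPases in dendritic spines, had 12, while Csmd1, Kirrel3 and Msra had 11 each, and Dlgap1 and Myt1l 10 each. Another 8 genes, Abr and Arid1b among them, had 9 each. Asic2 had no euploid peak and Dlg2 had 1, against 9 in Kalrn and 9 in Myt1l. The gained peaks of Dlg2 ranged from 3.12 to 5.48 in Ts65Dn and from 2.89 to 5.70 in Ts65Dn;Brwd1+/-. Of its 15, 8 overlapped a euploid SMARCA2/4 peak, against 4 of 17 in Dab1, 1 of 11 in Csmd1 and 20.1% of all gained peaks. The share of protein-coding genes with a gained peak rose with gene length from 7.02% under 10 kb to 67.0% at 300 kb or longer. The median length was 50.3 kb with and 14.04 kb without a gained peak.

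Groups of genes were set against genes of like length, without a test. Voltage-gated channels had one in 20 of 26 genes, where genes of like length had one in 45.6%, with 7 peaks in the calcium channel gene Cacna1d and 5 each in Cacna1c and the potassium channel genes Kcnd3 and Kcnma1. Kinases, cyclases and scaffolds of plasticity had one in 17 of 26 genes, against 38.0%, among them Kalrn with 12, the phosphodiesterase gene Pde4d with 7 and the scaffold gene Shank2 with 5. Transcription factors of the hippocampus had one in 11 of 22, against 31.2%, with 5 in Zbtb20 and 4 in Nfia. Glutamate receptors had one in 15 of 24, against 50.9%, led by Grik4 and Grin2a with 6 each and Gria1 and Grid1 with 5 each. GABA receptors had one in 7 of 15, against 39.8%, of which Gabbr2 alone held 8 peaks. Synaptic adhesion genes had one in 15 of 24, against 52.7%, with 8 in Nrxn3. A euploid peak was found for 18 of 26 channels (genes of like length 62.4%), 22 of 26 plasticity genes (60.2%) and 16 of 22 transcription factors (50.2%). It was found for 18 of 24 glutamate receptors (66.9%), 12 of 15 GABA receptors (60.6%) and 16 of 24 adhesion genes (67.15%).

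Immediate early genes, which neurons switch on within minutes of activity, had one in 4 of 18 genes, against 12.8% of genes of like length. Bdnf, Egr3, Nptx2 and Nr4a2 had 1 gained peak each, at promoters, and the other 14 had none, while 16 of the 18 had a euploid peak, against 32.6% of genes of like length. Subunits of BAF complexes had one in 10 of 26 genes, against 25.5% of genes of like length. These included Smarca2, with folds of 2.76 and 2.48, and Smarca4, with folds of 5.16 and 3.02. A euploid peak was found for 23 of the 26 BAF genes, against 51.0% of genes of like length. Markers of neurons had a gained peak in 8 of 12 genes, against 29.7% of genes of like length, led by Rbfox3, the gene of NeuN, with 4. Markers of other cells had one in 4 of 12 for astrocytes (against 17.9%), 2 of 12 for the oligodendrocyte lineage (against 19.3%) and 3 of 12 for microglia (against 15.5%). In the euploid list, a peak was found for 10 of 12 neuron markers (genes of like length 53.7%), 3 of 12 astrocyte (40.2%), 3 of 12 oligodendrocyte (45.2%) and 2 of 12 microglial markers (35.6%).

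The triplicated segment held 188 gained peaks (2.00%, 95% Wilson interval 1.74 to 2.30%), compared with 1.02% of the shared peaks, 1.04% (54 of 5215) of the peaks in Ts65Dn only and 2.17% (138 of 6351) of the peaks in Ts65Dn;Brwd1+/- only. It held 4 of the 79 gained peaks with a fold of at least 5 in both trisomic lists. These were the peaks of Rsph3a and Rsph3b, the peak at Tmem181a and its neighbour with the same partner fold of 6.12. Their values are uncertain, as given below. Within the segment, 48.2% of the 390 Ts65Dn peaks were gained, against 32.0% elsewhere, and there were 2.50 Ts65Dn peaks per euploid peak, against 1.88. The share was 59.6% on proximal chromosome 17 (84 of 141, interval 51.3 to 67.3%) and 36.0% on the rest of that chromosome, while on distal chromosome 16 it was 41.8% (104 of 249, interval 35.8 to 48.0%) and 36.3% on the rest. The additional DNA copy of the segment and its accessibility cannot be told apart in these lists. The gained peaks of the segment had median folds of 3.61 and 3.10, below the 3.79 and 3.34 elsewhere, and 6.38% were at proximal promoters, against 19.3% elsewhere.

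Within the segment, Arid1b, a BAF subunit gene on chromosome 17, had the most, with 9 gained peaks. Their folds ran from 2.57 to 4.14 in Ts65Dn and from 2.22 to 3.88 in Ts65Dn;Brwd1+/-. Of the 9, 7 overlapped a euploid SMARCA2/4 peak, against 12.8% of the segment's gained peaks and 20.1% of all gained peaks. Dscam, a cell adhesion gene of neuronal self-avoidance, had 7, Tiam2 and Pde10a had 6 each, App, the amyloid precursor gene, had 5, and Kcnj6, which encodes the channel GIRK2, had 4. Brwd1 itself had 2 euploid peaks and no gained peak. Among the segment's gained peaks of the proximal promoter class, the highest were those of Rsph3a, with folds of 7.02 and 5.14, and Rsph3b, with 6.24 and 5.11. Both genes, and Tmem181a, have close copies on proximal chromosome 17, and per the study's methods only uniquely mapped reads were kept, so reads that fit several copies were dropped and these values are uncertain.

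RNA of the genes near gained peaks was measured in the cultures, which the rule did not use. Library totals ran from 17270070 to 25892802 counts in genes. Brwd1 read 84.4 to 92.9 CPM (counts scaled to library size) in euploid, 120 to 128 in Ts65Dn and 129 to 152 in the libraries labelled Ts65Dn;Brwd1+/-, so it was not lower in the latter. Xist read at most 1.11 CPM in the euploid and Ts65Dn libraries and 1457 to 2061 in those labelled Ts65Dn;Brwd1+/-, while Ddx3y read 45.4 to 58.1 and at most 0.0892. The cultures were labelled as pooled from both sexes, so the labels and these levels differ, and sex and genotype cannot be told apart in that comparison. The labels do not say that the 3 libraries of a group came from separate dissections, so the p-values measure only the spread between libraries.

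Among 2484 tested genes with a gained peak in a promoter class, more had lower than higher RNA in Ts65Dn cultures. With edgeR's quasi-likelihood test and a Benjamini-Hochberg adjusted p under 0.05, 763 (30.7%) were lower and 594 (23.9%) higher than in euploid, where of all 17173 genes 21.1% were lower and 25.6% higher. In the proximal promoter class alone, 444 of 1564 genes (28.4%) were lower and 408 (26.1%) higher. In the libraries labelled Ts65Dn;Brwd1+/-, 330 (13.3%) were lower and 381 (15.3%) higher, where of all genes 15.2% were lower and 14% higher. Without euploid replicate 1 or 3, or any 1 library labelled Ts65Dn;Brwd1+/-, lower genes outnumbered higher ones in that comparison, with 259 lower and 238 higher without its replicate 3. The latter were 10.4% and 9.55%, where of all genes 12.1% were lower and 9.06% higher in the same fit. Both comparisons share the euploid libraries. The median log2 difference of these genes was -0.04 in Ts65Dn and 0.01 in the other comparison, where all genes had 0.04 and -0.02. The culture RNA is from cells taken from embryos and then cultured, while the peaks are from adult hippocampus. In bulk RNA, fewer cells of a type and less RNA per cell cannot be told apart.

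The share of lower genes rose with the number of gained peaks. In Ts65Dn cultures it was 19.8% of 10499 protein-coding genes without a gained peak, 27.1% of 2749 with 1, 43.1% of 908 with 2 to 4, and 61.2% of 103 with 5 or more, whose median log2 difference was -0.46. In the libraries labelled Ts65Dn;Brwd1+/- the same groups had 16.3%, 15.97%, 15.97% and 11.7% lower genes. Long genes were lower more often also without a gained peak. At 10 to 30 kb, 17.4% of genes without and 26.3% of genes with a gained peak were lower in Ts65Dn, and at 300 kb or longer, 45% of 160 and 53.5% of 370 were.

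**Figure D5:**
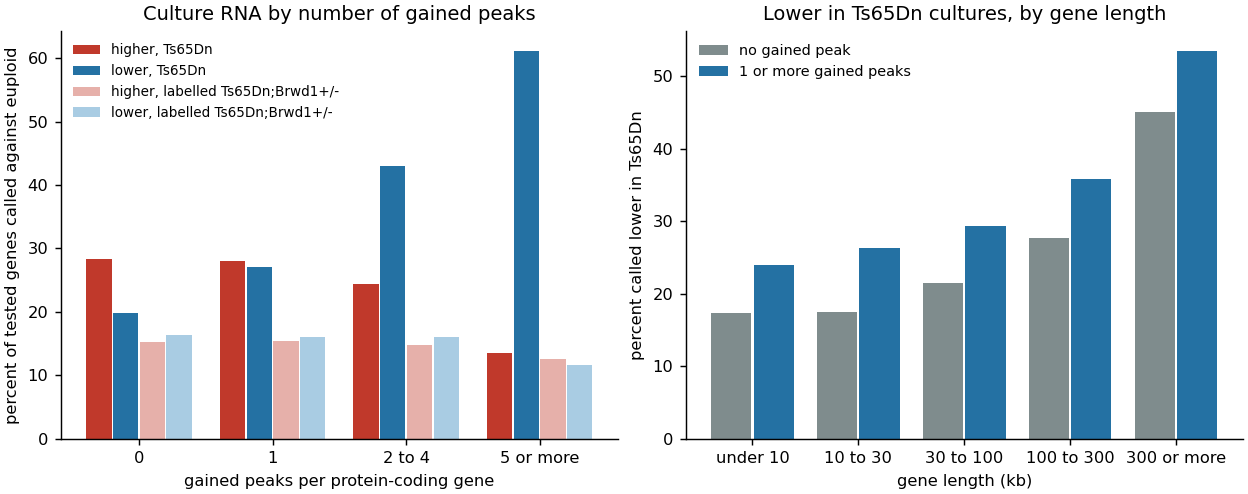
Left, the share of tested protein-coding genes (percent) called higher or lower than euploid in culture RNA (edgeR, adjusted p under 0.05), by number of gained peaks. Right, the share called lower in Ts65Dn by gene length, without and with gained peaks. Lower genes in Ts65Dn run from 19.8% without a gained peak to 61.2% with 5 or more, and at each length the share is higher with a gained peak.

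Markers of neurons moved with this result. In the Ts65Dn cultures 11 of 12 neuron markers were lower, and their summed level was 1299 to 3218 CPM against 5020 to 6138 in euploid and 5183 to 6420 in the libraries labelled Ts65Dn;Brwd1+/-. Of all genes, 25.6% were higher and 21.1% lower in Ts65Dn. Of the other marker lists, 6 of 11 tested astrocyte markers were higher and 2 lower (4457 to 5398 CPM against 3935 to 4910), 3 of 10 oligodendrocyte markers were higher and 1 lower (608 to 707 against 363 to 409), and 1 of 7 microglial markers was higher and 2 lower (43.7 to 53.5 against 26.9 to 37.7). In the libraries labelled Ts65Dn;Brwd1+/- these sums were 4591 to 5356, 994 to 1158 and 18.3 to 26.2 CPM. None of these markers was at 0 in all libraries. The part of the neuron markers in the RNA of genes with gained peaks was not tested. Of the neuronal gene groups, 14 of 14 GABA receptor, 23 of 26 voltage-gated channel, 20 of 25 plasticity, 19 of 23 adhesion and 17 of 24 glutamate receptor genes were lower in Ts65Dn, where 21.1% of all genes were. In the libraries labelled Ts65Dn;Brwd1+/-, where 15.2% of all genes were lower and 14% higher, 3, 2, 2, 1 and 1 genes of these groups were lower, and 1, 1, 0, 1 and 5 were higher. Hippocampal transcription factors were lower in Ts65Dn in 17 of 22 and higher in 2. Immediate early genes went the other way, with 3 of 17 tested lower and 6 higher. In the other comparison, 2 of these transcription factors were lower and 6 higher, and 4 immediate early genes were lower and 4 higher.

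Of the 9 genes with 10 or more gained peaks, 8 (all but Msra) were lower in Ts65Dn, where 21.1% of all genes were. Asic2 and Csmd1 were lower and Dlgap1 was higher in the other comparison, where 15.2% of all genes were lower and 14% higher. Kalrn read 101, 110 and 83.2 CPM in euploid, 66.7, 59.3 and 25.1 in Ts65Dn, and 127, 107 and 101 in the libraries labelled Ts65Dn;Brwd1+/-. All 3 Ts65Dn libraries were below all others, and the log2 difference to euploid was -0.93 ± 0.29 (SE, adjusted p = 0.0251, edgeR). By the same edgeR test, the adjusted p of Kalrn was 0.0662 without euploid replicate 1 and 0.0823 without euploid replicate 2. Dlg2 read 294, 248 and 226 CPM in euploid, 138, 124 and 39.9 in Ts65Dn, and 235, 206 and 201 in the last group, with a log2 difference of -1.31 ± 0.36 (adjusted p = 0.0129, edgeR) in Ts65Dn. For both genes replicate 3 of Ts65Dn was the lowest library. Myt1l, a repressor of non-neuronal genes, read 124, 119 and 97.9 CPM in euploid and 60.6, 54.2 and 21.4 in Ts65Dn, and Nrxn3, a presynaptic adhesion gene, 154, 141 and 155 against 90.4, 84.3 and 70.5. In the libraries labelled Ts65Dn;Brwd1+/-, Nrxn3 read 194, 195 and 191 CPM, above all others, with a log2 difference to euploid of 0.33 ± 0.09 (adjusted p = 0.0259, edgeR) that did not pass without any 1 of the 6 libraries of either group (adjusted p from 0.0518 to 0.102, edgeR). Dab1 differed less, at 119, 113 and 115 CPM in euploid against 89.0, 89.7 and 77.0 in Ts65Dn (log2 difference -0.41 ± 0.08, adjusted p = 0.00312, edgeR).

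Arid1b read 166, 188 and 164 CPM in euploid, 194, 233 and 247 in Ts65Dn, and 297, 287 and 286 in the libraries labelled Ts65Dn;Brwd1+/-. By edgeR, these were log2 differences of 0.40 ± 0.11 (adjusted p = 0.0115) and 0.70 ± 0.11 (adjusted p = 9.62e-04) from euploid, with all libraries of either group above all euploid ones. Without euploid replicate 3, the adjusted p of Arid1b in Ts65Dn was 0.0736 (edgeR). Asic2 was lower in both, with 128, 147 and 126 CPM in euploid, 85.8, 89.4 and 73.1 in Ts65Dn, and 106, 99.7 and 100 in the last group. Of the 2484 genes with a gained peak in a promoter class, 111 were higher and 39 lower in both comparisons, and of all 17173 genes 825 and 301.

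The largest differences in Ts65Dn among the genes with a gained promoter peak were mostly at weakly expressed genes, Serpina3n and Calb2 apart. Runx1, a transcription factor gene of the triplicated segment that is known for blood cell development, read 0.484, 0.345 and 0.550 CPM in euploid, 5.38, 8.15 and 8.56 in Ts65Dn, and 0.0892, 0.174 and 0.270 in the libraries labelled Ts65Dn;Brwd1+/-. Its log2 difference in Ts65Dn was 4.02 ± 0.28 (adjusted p = 6.37e-06, edgeR). Serpina3n, an inhibitor of serine proteases that reactive astrocytes express, read 8.95, 6.51 and 7.06 CPM in euploid, 89.96, 68.0 and 88.6 in Ts65Dn, and 8.42, 8.16 and 11.2 in the last group. Gm10421, Bcas1 and Meltf were higher by log2 differences of 4.09, 3.78 and 3.22. Gm10421 and Bcas1 were also higher in the libraries labelled Ts65Dn;Brwd1+/-, by 4.00 and 4.46.

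Among the lower genes, Calb2, which encodes the calcium-binding protein calretinin of interneurons, read 53.6, 51.4 and 58.3 CPM in euploid, 13.7, 10.3 and 7.95 in Ts65Dn, and 60.2, 65.5 and 66.9 in the libraries labelled Ts65Dn;Brwd1+/-. Its log2 difference was -2.33 ± 0.16 (adjusted p = 4.93e-06, edgeR). The other genes of that group, 2610507I01Rik, Glt1d1, Gpr139, which encodes an orphan receptor, and Hfm1, a meiotic helicase gene, had log2 differences of -2.75, -2.70, -2.19 and -2.15. Without replicate 1 of Ts65Dn, those of Glt1d1 and Hfm1 were -3.82 and -3.13. None of these 5 lower genes passed the test in the other comparison, with log2 differences from -0.25 to 0.63. Whether the differences of the 2 comparisons differ from each other was not tested.

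In euploid cultures, genes with a gained promoter peak were mostly expressed. Among 1561 genes with a gained and no euploid peak at the promoter, the median level was 5.01 RPKM (reads per kilobase of exon, scaled to library size) and 77.1% were at 1 RPKM or more. The 890 genes with both kinds of peak had a median of 10.1 RPKM and 94.5% at 1 or more, the 7494 genes with a euploid peak only had 7.60 RPKM and 91.6%, and the 11951 genes with neither had 0.0280 RPKM and 24.5%.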

How the data were processed

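ATAC-seq and SMARCA2/4 ChIP-seq peak lists and gene counts were used as deposited. The authors called ATAC-seq peaks with MACS (shift -100, extension 200) and deposited 1 list per genotype from 3 libraries, after keeping uniquely mapped reads and removing duplicates, with a fold enrichment ratio and a q-value for each peak on mm10. The ATAC-seq lists met the stated filter of q under 0.05 and a fold over 1.2, while the ChIP-seq lists held peaks of higher q, and how libraries were pooled is not given in the sources used here. The authors deposited raw counts per gene for each culture library, and the lines that name no gene (37.4 to 40.0% of all counts) were left out.

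Peaks sharing 1 bp were called overlapping, and the peak lists were described without tests. The members and gene lists were chosen with earlier results of these data known. Named peaks were those with the highest lower fold of both lists, in all, at proximal promoters and with euploid SMARCA2/4. Named genes were the 10 with most gained peaks (Abr, the tenth, was tied with 7 others), the leading members of each gene list and, among genes with a gained promoter peak, the 5 largest called changes each way in Ts65Dn. Among these, Kalrn, Dlg2, Myt1l, Nrxn3, Dab1, Asic2 and Arid1b were picked for library values after their values were seen. Counts were filtered by expression, normalized by TMM and tested in edgeR 4.0.16 (R 4.3.3) across all 9 libraries without a replicate block, with Benjamini-Hochberg adjustment over 17173 genes. The test was checked on simulated counts. The labels do not say what a replicate number marks. By the correlation of deviations from group means, same numbers paired euploid with Ts65Dn libraries (r = 0.13, 0.21 and 0.26) but not euploid with Ts65Dn;Brwd1+/- libraries (0.10, -0.16 and 0.19).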

Additional observations from a re-analysis of the deposited data

How the results depend on the processing

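The number of gained peaks was 9296 when at least 50% of the shorter peak had to overlap, 8824 when any euploid peak within 500 bp counted as shared, and 9067 on autosomes without the triplicated segment. It was 1557 with both trisomic lists cut to the size of the euploid list and 1444 with a fold of at least 5 in all 3 lists, a floor that drops weak euploid peaks as well, so that 1365 of the 1444 overlap a euploid peak of lower fold and are not gained peaks. The share at proximal promoters was then 18.1% under the 500 bp rule, 25.8% in the cut lists and 65.6% at a fold of at least 5, and the share overlapping euploid SMARCA2/4 was 19.0%, 24.6% and 32.9%, and 18.2% with ChIP peaks of q under 0.05 only. The segment held 0.623% (9 of 1444) at a fold of at least 5. Apart from the construction of each alternative, the cause was not tested.

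For the culture RNA of genes with a gained promoter peak, counting the proximal class only left 408 higher and 444 lower of 1564 genes in Ts65Dn (26.1% and 28.4%), and 258 higher and 211 lower in the libraries labelled Ts65Dn;Brwd1+/-. Leaving out 1 library at a time gave 470 to 565 higher and 618 to 802 lower genes in Ts65Dn (18.8 to 22.7% and 24.8 to 32.1%). Of all genes, 20.6 to 23.8% were then higher and 17.3 to 22.1% lower. In the other comparison, leaving out 1 library gave 238 to 470 higher and 259 to 402 lower genes. Without replicate 3 of Ts65Dn;Brwd1+/- they were 238 higher and 259 lower (9.55% and 10.4%), where of all genes 9.06% were higher and 12.1% lower. With the replicate number as a block, the counts were 616 higher and 795 lower in Ts65Dn and 415 and 376 in the other comparison, where the numbers did not pair the libraries. Euploid and Ts65Dn libraries alone, chosen after seeing the data, gave 545 higher and 800 lower with the block (22.1% and 32.4%, of all genes 23.2% and 22.8%). Without it they gave 489 and 726 (19.8% and 29.4%, of all genes 21.8% and 20.5%). DESeq2 gave 523 higher and 769 lower in Ts65Dn (19.7% and 29.0%, of all genes 17.6% and 16.7%). It gave 360 and 325 in the other comparison (13.7% and 12.4%, of all genes 10.55% and 12.1%). Leaving out genes of the triplicated segment, an alternative chosen after seeing the data, gave 579 higher and 761 lower in Ts65Dn. The 5 genes most raised and the 5 most lowered in Ts65Dn among those with a gained promoter peak kept their direction and call under all 150 combinations of gene and alternative. Of the 7 other genes given by library, 5 kept theirs in Ts65Dn, and Kalrn and Arid1b did not when 1 euploid library was left out.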
